A study of Homo sapiens with 12 samples.

Results

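The genes described here are 28 genes of cholesterol and fatty acid synthesis that are known targets or regulators of the sterol regulatory element-binding proteins (SREBPs). They were taken as a list by name, and each was represented by 1 array probe, the one with the highest mean log2 value over the 12 arrays of the study. A named probe was found for 27 of the 28 genes, among 20046 genes with a named probe in all. FDFT1, squalene synthase, was not analysed here. The list falls into a sterol arm of 21 genes and a fatty acid arm of 7 genes.

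Cholesterol is built from acetyl-CoA. The mevalonate steps make isoprenoid units from it, farnesyl diphosphate synthase joins these, and the product is turned into squalene, which is closed into lanosterol and trimmed to cholesterol. Fatty acids start from the same acetyl-CoA, which ATP citrate lyase splits from citrate and acetyl-CoA carboxylase activates. Fatty acid synthase then assembles palmitate, which elongases and desaturases extend and unsaturate. When membrane sterol is low, the SREBP precursors encoded by SREBF1 and SREBF2 are carried to the Golgi, cut, and switch on most of these enzymes together; when sterol is plentiful, the INSIG proteins hold the precursors back. ESRRG belongs to the estrogen-related receptors, nuclear receptors with no known natural ligand that are best known for driving genes of oxidative metabolism.

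RNA came from 4 groups of 3 samples: AGS cells with ESRRG overexpression (AGS ESRRG OE), AGS control, MKN45 cells with ESRRG overexpression (MKN45 ESRRG OE) and MKN45 control. AGS and MKN45 are established human gastric cancer cell lines, grown here in RPMI1640 medium. All 4 groups received a lentiviral vector and were harvested after 3 days; in the ESRRG OE groups it carried the full-length ESRRG cDNA behind an EF1 promoter, which acts in most cell types, and the study's legends for related experiments call this vector Flag-ESRRG and the control vector Flag. It is not stated if the 3 samples in each group were grown as separate cultures. The p-values therefore cover the spread among these samples alone, and that spread may be technical.

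Values are log2 intensities of Illumina BeadChip arrays, 1 array per sample, after quantile normalization of the 12 arrays. A probe counted as detected on an array at a detection p-value under 0.05, which compares it with that array's negative control probes, and a gene was tested in a line when its probe was detected on at least 3 of the 6 arrays. A gene was called higher or lower at an adjusted p under 0.05 from limma, adjusted over all genes tested. Between 18795 and 20378 probes were detected on the AGS arrays and between 19465 and 20397 on the MKN45 arrays. The number of arrays limits the precision.

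The arrays labelled AGS and MKN45 were much alike. Across 21080 probes the control arrays of the different lines correlated at r = 0.983 to 0.987, while ESRRG OE and control arrays correlated at 0.957 to 0.962 within AGS and at 0.967 to 0.974 within MKN45. Between MKN45 control and AGS control, 68 of 11563 genes differed by more than 2-fold and passed the test. MET, a receptor gene known to be amplified in MKN45 cells and looked up after the likeness was seen, was at 9.20 to 9.31 log2 units on the MKN45 control arrays and at 8.94 to 9.15 on the AGS control arrays. Whether these arrays hold different lines was not tested, and each line is therefore described on its own. The 3 probes for ESRRG did not show the overexpression. The brightest averaged 6.90 in AGS ESRRG OE and 7.27 in AGS control samples, and 6.94 in MKN45 ESRRG OE and 6.91 in MKN45 control samples, while the other 2 probes were detected on 0 arrays. Whether any of them lies within the introduced cDNA is not known here, so they do not check the labels.

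All 6 epithelial markers (EPCAM, KRT8, KRT18, KRT19, CDH1 and CLDN4) were detected on all 12 arrays. The leukocyte genes PTPRC, CD3E and CD14 and the fibroblast genes COL3A1, DCN and PDGFRB were detected on 0 arrays. So were the endothelial genes VWF, CDH5 and KDR. The other fibroblast genes listed, COL1A1 and COL1A2, and the endothelial gene PECAM1 were detected on some arrays. COL1A1 was tested and passed in neither line (0.07 in AGS and -0.03 in MKN45 cells). The summed linear signal of the 4 leukocyte markers with a named probe was 1060 to 1270 in AGS ESRRG OE and 792 to 1050 in AGS control samples, and 1070 to 1210 in MKN45 ESRRG OE and 872 to 1050 in MKN45 control samples, of which only CD68, a lysosomal protein, was detected on all arrays. Its part in the results was not tested. The summed signal of the epithelial markers was 24400 to 25700 in AGS ESRRG OE and 27500 to 29300 in AGS control samples, and 22400 to 24900 in MKN45 ESRRG OE and 27600 to 28800 in MKN45 control samples. Single markers differed. KRT8 was lower in AGS (-0.84) and MKN45 ESRRG OE cells (-0.82), and so was KRT19 (-0.22 and -0.62). CDH1 (0.23) and CLDN4 (0.30) were higher in AGS and EPCAM (0.30) in MKN45 ESRRG OE cells. The summed signal of 7 gastric epithelial markers was 6610 to 7520 in AGS ESRRG OE and 2280 to 2490 in AGS control samples, and 8910 to 9510 in MKN45 ESRRG OE and 2480 to 2930 in MKN45 control samples, with TFF1, a trefoil peptide, at log2 fold changes of 5.32 and 5.50. MUC1, the only gastric marker detected on all 12 arrays, was lower in AGS (-0.23) and MKN45 ESRRG OE cells (-0.86). PGC was higher in AGS (0.22) and GKN2 in MKN45 ESRRG OE cells (0.43), and MUC6 passed in neither line. Since these are bulk RNA samples, fewer cells of a kind and less RNA per cell cannot be told apart.

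Another scaling moved the balance of rises and falls over all genes. Of all genes that passed the test, 47.0% were higher in AGS ESRRG OE and 49.1% in MKN45 ESRRG OE cells, and with each array divided by its median in place of quantile normalization these shares were 70.7% and 88.7%. Over all genes, the median change moved by 0.11 log2 units in AGS and by 0.17 in MKN45 cells. The members are therefore also given relative to that median below.

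Of the 28 genes, 24 were detected on all 12 arrays and were tested in both lines: 19 of the sterol arm and 5 of the fatty acid arm. The remaining 3 with a named probe, STARD4 (a sterol transfer protein) and FADS1 and FADS2 (fatty acid desaturases), were detected on 0 arrays, with log2 intensities of 6.61 to 6.83, 6.54 to 6.78 and 6.71 to 6.94, and have no fold change here.

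In AGS cells most of the synthesis genes fell on ESRRG overexpression. Of the 24 genes tested, 15 were lower in AGS ESRRG OE than in AGS control samples, 2 were higher (SCD and SC5D) and 7 did not pass the test. The members were thus lower in 62.5% and higher in 8.33% of cases, against 27.2% lower and 24.1% higher over all 10920 genes tested in AGS cells. The median log2 fold change of the members was -0.35, against -0.02 over all genes. With each array divided by its median it was -0.19, which lay 0.29 below the median of all genes, and 11 members were lower and 4 higher, without the calls of MVK, PMVK, EBP and INSIG1. The shares of all genes on that scale were 13.4% lower and 32.4% higher. When each probe was tested on its own spread, in place of one shared across genes, the AGS calls of MVD, PMVK, SC5D, EBP and INSIG1 were lost, at adjusted p-values of 0.0607 to 0.149.

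In MKN45 cells the pattern was weaker and rested more on the scaling. Of the 24 genes, 10 were lower in MKN45 ESRRG OE than in MKN45 control samples, 5 were higher (SCD, SC5D, ELOVL6, MSMO1 and CYP51A1) and 9 did not pass the test. The share of members called lower was 41.7%, against 20.9% of all 11240 genes tested in MKN45 cells, while the share called higher was 20.8%, close to the 20.1% of all genes. The median log2 fold change of the members was -0.18, against -0.01 over all genes. With each array divided by its median the members' median turned to 0.07, still 0.09 below that of all genes, and only PMVK (-0.42) and LSS (-0.47) were called lower. The 8 genes that lost the call lay between -0.25 (FASN, adjusted p = 0.0826) and -0.03 (ACAT2, adjusted p = 0.920) on that scale. The 5 higher genes still passed, with MSMO1 at 0.66 and CYP51A1 at 0.51. The shares of all genes on that scale were 3.91% lower and 30.7% higher. When each probe was tested on its own spread, in place of one shared across genes, the MKN45 calls of ACAT2, MVD, DHCR7, MSMO1, ACACA and FASN were lost, at adjusted p-values of 0.0503 to 0.152.

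Across the lines, 9 genes were lower in both (HMGCS1, ACAT2, MVD, PMVK, LSS, DHCR7, NSDHL, ACACA and FASN) and 2 were higher in both (SCD and SC5D). These were 37.5% and 8.33% of the members, against 16.1% lower and 15% higher in both lines among all 10597 genes tested in both. Only LSS was lower in both with each array divided by its median (4.17% of the members, against 3.22% of all genes), and SCD, SC5D and ELOVL6 were higher in both (12.5%, against 22.8%). Another 6 passed the test as lower in AGS cells only (MVK, IDI1, SQLE, EBP, INSIG1 and ACLY) and 1 in MKN45 cells only (FDPS). No member was higher in one line and lower in the other at the threshold.

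**Figure D1:**
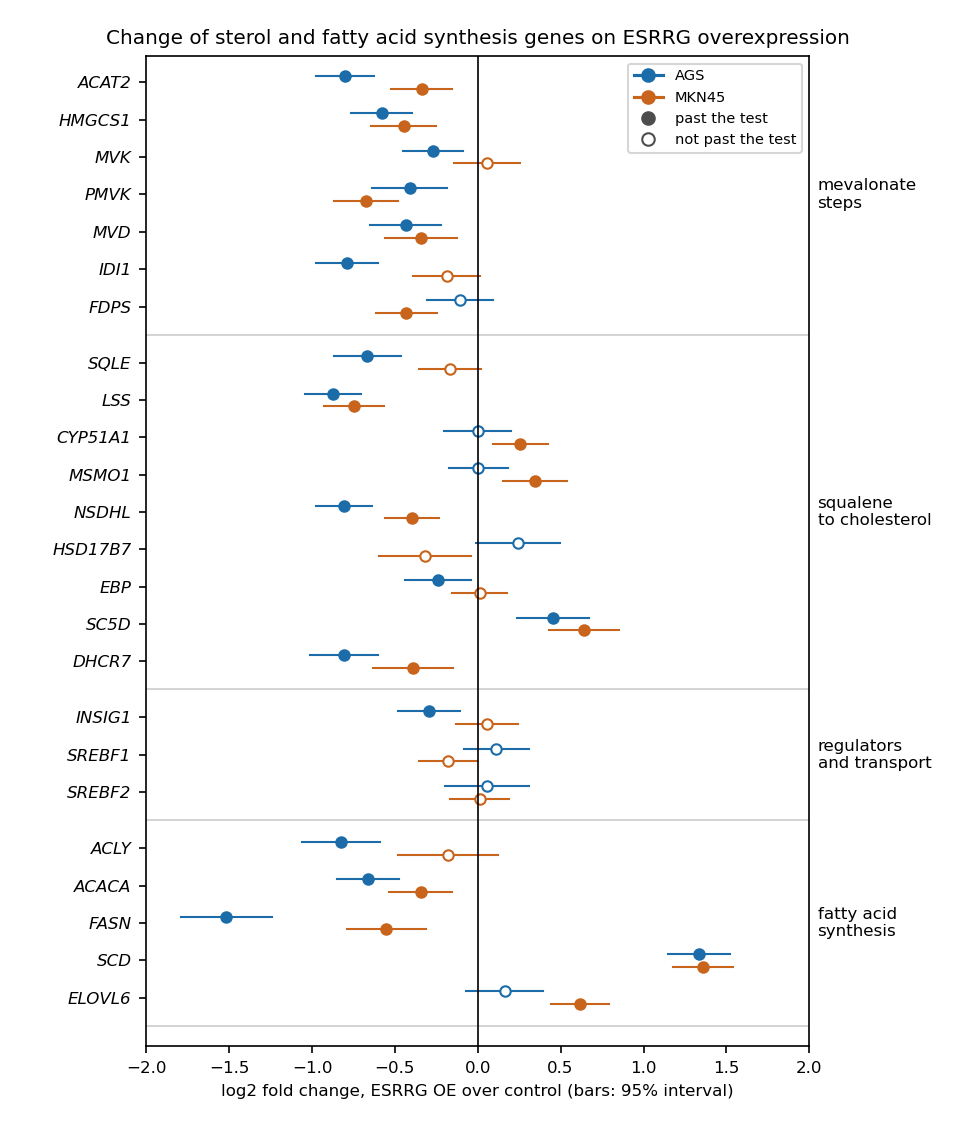
Log2 fold change of each gene in ESRRG OE over control samples, for AGS (blue) and MKN45 (orange) cells, with 95% intervals from limma; filled points passed the test at an adjusted p under 0.05. Of the 24 genes, 15 were lower in AGS and 10 in MKN45 cells under quantile normalization (11 and 2 with each array divided by its median), and SCD and SC5D were higher in both lines.

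**Figure D2:**
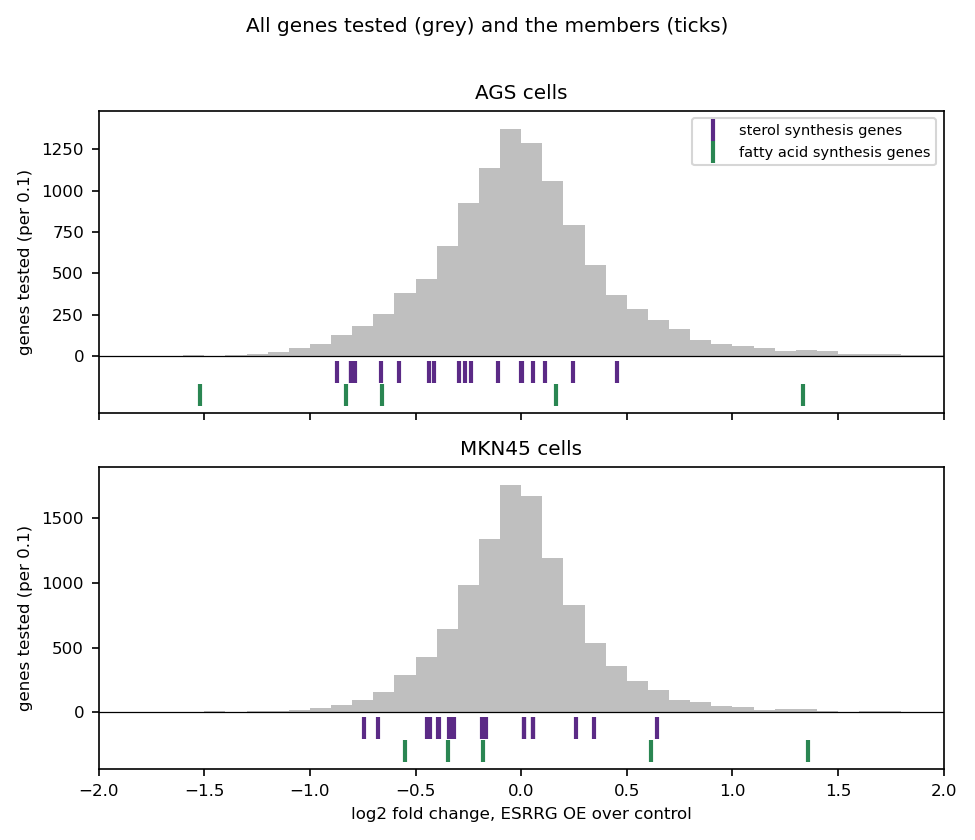
Number of genes per 0.1 log2 unit of change (grey bars) in ESRRG OE over control samples of each line, with each sterol synthesis gene (purple) and fatty acid synthesis gene (green) as a tick below; the axis is cut at -2 and 2. In AGS cells the sterol genes sit mostly left of the centre of all genes, with a member median of -0.35 against -0.02; in MKN45 cells the medians were -0.18 and -0.01 (0.07 and 0.16 with each array divided by its median).

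Promoter sequences are shown for 5 of the 6 members with the largest changes (FASN has no entry in the table used), by the larger of their AGS and MKN45 changes: in AGS cells LSS, ACLY, NSDHL and DHCR7 were lower and SCD was higher, and in MKN45 cells ACLY did not pass the test. The windows run from 250 bases before to 50 bases after the annotated start, 5′ to 3′ on the strand of the gene, from RefSeq on GRCh38.p14, with the first start listed for each gene. An entry was found for 24 of the 28 genes, the others being ACAT2, FASN, FDFT1 and SQLE. Capitals mark the CCAAT box, the binding site of NF-Y, a factor known to work beside SREBPs, read on either strand as CCAAT or ATTGG. The windows are SCD at chr10:100346983-100347282 (plus strand), LSS at chr21:46228725-46229024 (minus strand), ACLY at chr17:41918973-41919272 (minus strand), NSDHL at chrX:152830813-152831112 (plus strand) and DHCR7 at chr11:71448344-71448643 (minus strand).
SCD: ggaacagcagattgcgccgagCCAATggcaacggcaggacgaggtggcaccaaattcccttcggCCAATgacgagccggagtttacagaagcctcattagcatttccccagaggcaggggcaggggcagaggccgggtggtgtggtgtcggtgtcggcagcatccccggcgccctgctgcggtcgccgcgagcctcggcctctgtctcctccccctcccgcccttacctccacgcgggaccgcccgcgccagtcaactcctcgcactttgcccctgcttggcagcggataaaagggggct
LSS: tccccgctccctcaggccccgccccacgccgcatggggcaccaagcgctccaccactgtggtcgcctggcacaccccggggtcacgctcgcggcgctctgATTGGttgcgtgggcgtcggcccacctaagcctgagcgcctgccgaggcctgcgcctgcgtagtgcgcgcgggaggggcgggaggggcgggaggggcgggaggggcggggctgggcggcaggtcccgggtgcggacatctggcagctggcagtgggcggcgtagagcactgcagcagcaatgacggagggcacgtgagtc
ACLY: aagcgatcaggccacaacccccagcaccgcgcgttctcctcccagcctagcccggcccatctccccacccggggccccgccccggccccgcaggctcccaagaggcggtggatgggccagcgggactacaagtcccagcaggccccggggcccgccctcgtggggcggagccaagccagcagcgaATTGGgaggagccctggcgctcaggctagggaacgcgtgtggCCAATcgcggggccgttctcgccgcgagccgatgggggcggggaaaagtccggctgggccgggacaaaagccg
NSDHL: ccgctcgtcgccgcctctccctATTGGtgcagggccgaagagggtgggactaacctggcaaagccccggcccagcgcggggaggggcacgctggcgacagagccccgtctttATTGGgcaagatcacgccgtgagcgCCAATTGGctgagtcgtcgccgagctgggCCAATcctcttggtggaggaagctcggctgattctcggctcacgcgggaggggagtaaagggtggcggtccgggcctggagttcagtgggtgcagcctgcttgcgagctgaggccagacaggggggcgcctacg
DHCR7: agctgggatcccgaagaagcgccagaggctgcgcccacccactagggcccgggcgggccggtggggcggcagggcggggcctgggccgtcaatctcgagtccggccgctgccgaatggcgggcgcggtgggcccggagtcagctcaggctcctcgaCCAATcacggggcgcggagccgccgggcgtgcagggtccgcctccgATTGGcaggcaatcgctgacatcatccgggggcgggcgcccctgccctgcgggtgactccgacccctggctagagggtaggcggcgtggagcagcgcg
The NSDHL window held 5 CCAAT boxes, of which 2 overlap on opposite strands, SCD, ACLY and DHCR7 held 2 each, and LSS held 1.

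Over the 24 windows, 16 (66.7%) held at least 1 CCAAT box and 12 held 2 or more, against 35.7% and 11.3% of the windows of 27305 genes. The box was present in 9 of the 12 windows of genes that were lower in AGS ESRRG OE cells and in 6 of the 9 windows of the other genes tested. The sterol regulatory element in the form TCACNCCAC, where SREBPs bind, was found on either strand in 1 window, that of SREBF2, against 1.15% of all windows. The estrogen-related receptor element in the form TNAAGGTCA was found in 0 of the 24 windows, against 0.963% of all. The E-box CACGTG was found in the windows of INSIG1, LSS and SC5D, 3 of 24, against 7.43% of all. No motif contains another. A match is a description of these letters in a short window.

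The 7 genes of the mevalonate steps held no rise in either line. In AGS ESRRG OE cells 6 were lower and 1 (FDPS) did not pass the test, and in MKN45 ESRRG OE cells 5 were lower and 2 (MVK and IDI1) did not pass. These shares were 85.7% and 71.4%, against 27.2% and 20.9% of all genes. Dividing each array by its median left 4 lower in AGS and 1 (PMVK) in MKN45 ESRRG OE cells, against 13.4% and 3.91% of all genes. ACAT2, the cytosolic thiolase that joins acetyl-CoA units at the entry, was at 9.52, 9.60 and 9.66 log2 units in AGS ESRRG OE samples, against 10.34, 10.45 and 10.38 in AGS control samples. The nearest arrays of the groups lay 0.68 apart, and the gene was 1.74-fold lower in ESRRG OE samples (-0.80 on the log2 scale, SE 0.08, adjusted p = 8.94e-07). In MKN45 cells ACAT2 was at 9.91, 9.86 and 9.75 in ESRRG OE samples, against 10.15, 10.30 and 10.08 in control samples, a smaller fall of 1.26-fold (-0.34, SE 0.09, adjusted p = 0.00587).

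HMGCS1, the synthase that makes HMG-CoA, was at 9.16, 9.08 and 9.34 in AGS ESRRG OE samples, against 9.74, 9.73 and 9.84 in AGS control samples. All 3 ESRRG OE arrays lay below all 3 control arrays (1.50-fold lower, -0.58, SE 0.09, adjusted p = 4.83e-05). The same held in MKN45 cells, with 9.62, 9.56 and 9.78 in ESRRG OE and 10.17, 10.19 and 9.95 in control samples (1.36-fold lower, -0.45, SE 0.09, adjusted p = 0.00148). PMVK, phosphomevalonate kinase, was 1.60-fold lower in MKN45 ESRRG OE cells (-0.68, SE 0.09, adjusted p = 4.83e-05) and 1.33-fold lower in AGS ESRRG OE cells (-0.41, SE 0.10, adjusted p = 0.00404). MVD, the decarboxylase that makes isopentenyl diphosphate, was 1.35-fold lower in AGS (-0.44, SE 0.10, adjusted p = 0.00188) and 1.27-fold lower in MKN45 ESRRG OE cells (-0.34, SE 0.10, adjusted p = 0.0153). The call in MKN45 cells was lost on leaving out control replicate 1 (-0.23, adjusted p = 0.0711) and on leaving out ESRRG OE replicate 2 (-0.28, adjusted p = 0.0861). MVD and MVK have dim probes, and with background correction MVD was at -0.77 in AGS and -0.60 in MKN45 cells and MVK at -0.71 in AGS cells.

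IDI1, the isomerase that follows, had one of the larger gaps between the lines. It was at 8.14, 8.08 and 8.13 in AGS ESRRG OE samples, against 9.08, 8.82 and 8.83 in AGS control samples, and was 1.73-fold lower (-0.79, SE 0.09, adjusted p = 2.51e-06). In MKN45 cells the groups overlapped, with 9.04, 8.80 and 8.84 in ESRRG OE and 9.20, 9.12 and 8.93 in control samples (-0.19, 95% interval -0.39 to 0.01, adjusted p = 0.128). FDPS, which makes farnesyl diphosphate, showed the opposite split. It was at 8.63, 8.57 and 8.59 in MKN45 ESRRG OE samples, against 8.89, 9.15 and 9.04 in MKN45 control samples (1.35-fold lower, -0.43, SE 0.08, adjusted p = 0.00110). In AGS cells it was at 8.69, 8.82 and 8.95 in ESRRG OE and 8.91, 9.07 and 8.80 in control samples, with overlap and no call (-0.11, adjusted p = 0.352). The change of FDPS was not shown to differ between the lines (AGS change minus MKN45 change 0.32, adjusted p = 0.110). MVK, mevalonate kinase, was 1.20-fold lower in AGS ESRRG OE cells (-0.27, adjusted p = 0.0150), a call that needed AGS control replicate 1 (without it, adjusted p = 0.0621) and AGS ESRRG OE replicate 1 (without it, adjusted p = 0.0525). In MKN45 cells its groups overlapped (0.06, adjusted p = 0.656).

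Of the 9 tested genes from squalene to cholesterol, 5 were lower and 1 was higher in AGS ESRRG OE cells, and 3 were lower and 3 were higher in MKN45 ESRRG OE cells. The shares lower were 55.6% in AGS and 33.3% in MKN45 cells, against 27.2% and 20.9% of all genes. The shares higher were 11.1% and 33.3%, against 24.1% and 20.1% of all genes. With each array divided by its median, 4 genes in AGS and 1 (LSS) in MKN45 cells were lower. Of all genes, 13.4% and 3.91% were lower on that scale. LSS, which closes squalene epoxide into lanosterol, fell in both lines. It was at 8.56, 8.62 and 8.56 in AGS ESRRG OE samples, against 9.46, 9.50 and 9.40 in AGS control samples (1.83-fold lower, -0.87, SE 0.08, adjusted p = 2.52e-07). It was at 8.53, 8.47 and 8.41 in MKN45 ESRRG OE samples, against 9.30, 9.08 and 9.26 in MKN45 control samples (1.68-fold lower, -0.74, SE 0.08, adjusted p = 1.19e-05). The groups were far apart, the call held under all 16 alternatives in each line (with -0.37 in AGS cells for the mean of its probes and -0.47 in MKN45 cells with each array divided by its median), and the falls were not shown to differ between the lines (difference -0.13, 95% interval -0.36 to 0.10).

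NSDHL, a dehydrogenase that helps remove the methyl groups of lanosterol, was at 7.96, 7.99 and 8.06 in AGS ESRRG OE samples, against 8.84, 8.76 and 8.83 in AGS control samples (1.75-fold lower, -0.81, SE 0.08, adjusted p = 6.38e-07). In MKN45 cells it was at 8.58, 8.46 and 8.58 in ESRRG OE and 8.93, 8.94 and 8.93 in control samples (1.32-fold lower, -0.40, SE 0.08, adjusted p = 9.49e-04). The control arrays of MKN45 were almost equal and lay above every ESRRG OE array of either line. DHCR7, which makes the last reduction to cholesterol, was at 8.76, 8.65 and 8.48 in AGS ESRRG OE samples, against 9.57, 9.32 and 9.42 in AGS control samples (1.75-fold lower, -0.81, SE 0.10, adjusted p = 4.23e-06). In MKN45 cells it was at 9.10, 9.16 and 8.95 in ESRRG OE and 9.66, 9.17 and 9.54 in control samples (1.31-fold lower, -0.39, SE 0.11, adjusted p = 0.0131). The MKN45 groups came within 0.0167 of each other at control replicate 2, and the call was lost without control replicate 1 (adjusted p = 0.0661) or control replicate 3 (adjusted p = 0.0655).

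SQLE, squalene epoxidase, one of the slow steps of the pathway, was at 9.53, 9.51 and 9.43 in AGS ESRRG OE samples, against 10.12, 10.00 and 10.35 in AGS control samples (1.59-fold lower, -0.67, SE 0.09, adjusted p = 2.49e-05). In MKN45 cells it was at 10.01, 9.78 and 10.00 in ESRRG OE and 10.18, 10.04 and 10.07 in control samples, which did not pass the test (-0.17, 95% interval -0.35 to 0.02, adjusted p = 0.140). EBP, a sterol isomerase, was lower in AGS ESRRG OE cells by the smallest called change of the list (1.18-fold, -0.24, adjusted p = 0.0430), with overlapping groups. That call was lost without AGS control replicate 2 (-0.16, adjusted p = 0.177) or 3 (adjusted p = 0.0720), and without AGS ESRRG OE replicate 2 (adjusted p = 0.107) or 3 (adjusted p = 0.128). In MKN45 cells EBP was at 0.01 (adjusted p = 0.910).

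SC5D, which sets the double bond at the end of the sterol route before DHCR7 acts, was the only sterol gene called higher in both lines. It was at 9.12, 9.22 and 9.39 in AGS ESRRG OE samples, against 8.94, 8.59 and 8.85 in AGS control samples (1.37-fold higher, 0.45, SE 0.10, adjusted p = 0.00165). It was at 9.69, 9.60 and 9.47 in MKN45 ESRRG OE samples, against 9.16, 8.82 and 8.86 in MKN45 control samples (1.56-fold higher, 0.64, SE 0.10, adjusted p = 1.69e-04). SC5D and DHCR7 catalyse neighbouring steps and went in opposite directions in both lines, with no overlap between the groups.

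The demethylation genes MSMO1 and CYP51A1 passed the test in MKN45 cells, where both were higher in ESRRG OE samples. CYP51A1, the lanosterol demethylase, was at 8.45, 8.41 and 8.53 in MKN45 ESRRG OE samples, against 8.23, 8.20 and 8.18 in MKN45 control samples (1.20-fold higher, 0.26, SE 0.08, adjusted p = 0.0147, and 0.22 with adjusted p = 0.0641 without ESRRG OE replicate 3). MSMO1, a methylsterol oxidase, was at 10.62, 10.62 and 10.50 in MKN45 ESRRG OE samples, against 10.41, 10.14 and 10.15 in MKN45 control samples (1.27-fold higher, 0.35, SE 0.09, adjusted p = 0.00686). In AGS cells both log2 fold changes were 0.00, with 95% intervals of -0.20 to 0.20 for CYP51A1 and -0.18 to 0.18 for MSMO1. The differences between the lines did not pass the test (adjusted p = 0.178 for CYP51A1 and 0.0746 for MSMO1). They passed without AGS ESRRG OE replicate 3 for CYP51A1 (-0.36, adjusted p = 0.0391) and without MKN45 control replicate 1 for MSMO1 (-0.43, adjusted p = 0.0265). Another probe of MSMO1 passed with all arrays (-0.66, adjusted p = 0.0109). The remaining probe of MSMO1 lay on the other side and did not pass (0.27, adjusted p = 0.262).

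HSD17B7, a ketoreductase of the sterol route, passed the test in neither line, at 0.24 in AGS (adjusted p = 0.0985) and -0.32 in MKN45 cells (adjusted p = 0.0633). Its arrays varied more than those of most members, with 11.94 to 12.53 in AGS control and 11.51 to 12.12 in MKN45 ESRRG OE samples. It was called higher in AGS ESRRG OE cells without control replicate 3 (0.40, adjusted p = 0.00455), and lower in MKN45 ESRRG OE cells on leaving out control replicate 1 (-0.39, adjusted p = 0.0481) or, in turn, ESRRG OE replicate 3 (-0.48, adjusted p = 0.00158). A near-identical transcribed pseudogene is known for HSD17B7, and whether the probe tells them apart is not known here.

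Of the 3 regulators tested, 1 (INSIG1) was lower in AGS ESRRG OE cells and 0 passed the test in MKN45 cells. The share in AGS cells was 33.3%, near the 27.2% of all genes called lower. SREBF2, whose product drives mainly sterol genes, was at 0.06 in AGS (95% interval -0.20 to 0.31, adjusted p = 0.721) and 0.01 in MKN45 cells (-0.17 to 0.19, adjusted p = 0.921). SREBF1, whose product drives mainly fatty acid genes, was at 0.11 in AGS (-0.08 to 0.31, adjusted p = 0.329) and -0.18 in MKN45 cells (-0.36 to -0.01, adjusted p = 0.0933); with each array divided by its median it was called higher in AGS ESRRG OE cells (0.30, adjusted p = 0.0292). INSIG1, itself a target of SREBPs and a brake on their processing, was at 8.50, 8.52 and 8.35 in AGS ESRRG OE samples, against 8.88, 8.70 and 8.68 in AGS control samples (1.23-fold lower, -0.30, SE 0.09, adjusted p = 0.0107). The call was lost without AGS control replicate 1 (-0.23, adjusted p = 0.0541) and with the mean of its probes (-0.14, adjusted p = 0.149). In MKN45 cells INSIG1 was at 0.05 (adjusted p = 0.657). The arrays measure the RNA of the SREBF genes and not the cutting of their products.

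The fatty acid arm held the largest changes of the list, in opposite directions. FASN, fatty acid synthase, was at 9.39, 9.28 and 9.42 in AGS ESRRG OE samples, against 11.24, 10.86 and 10.55 in AGS control samples. The control arrays were spread over 0.69 log2 units, and the lowest still lay 1.13 above the highest ESRRG OE array (2.87-fold lower, -1.52 on the log2 scale, 95% interval -1.79 to -1.24, adjusted p = 1.34e-07). In MKN45 cells FASN was at 10.19, 10.07 and 10.01 in ESRRG OE and 10.67, 10.38 and 10.88 in control samples, a fall of 1.47-fold without overlap (-0.55, SE 0.11, adjusted p = 0.00127). In AGS cells this change ranked 118 of 10920 genes by size.

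ACACA, the cytosolic acetyl-CoA carboxylase, was at 8.35, 8.39 and 8.35 in AGS ESRRG OE samples, against 9.15, 8.86 and 9.06 in AGS control samples (1.58-fold lower, -0.66, SE 0.09, adjusted p = 1.46e-05). In MKN45 cells it was at 8.64, 8.54 and 8.59 in ESRRG OE and 8.95, 8.78 and 9.08 in control samples (1.27-fold lower, -0.34, SE 0.09, adjusted p = 0.00639). ACLY, ATP citrate lyase, whose acetyl-CoA feeds both arms, was at 9.61, 9.34 and 9.65 in AGS ESRRG OE samples, against 10.52, 10.11 and 10.45 in AGS control samples (1.77-fold lower, -0.83, SE 0.11, adjusted p = 1.60e-05). In MKN45 cells it was at 10.07, 10.13 and 9.99 in ESRRG OE samples, against 10.50, 9.81 and 10.41 in control samples. Control replicate 2 was the lowest of all 6 MKN45 arrays, so the groups overlapped and the change did not pass the test (-0.18, 95% interval -0.48 to 0.12, adjusted p = 0.335). Without that array ACLY was lower (-0.40, adjusted p = 0.00240).

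SCD, the desaturase that turns stearate into oleate, rose by nearly the same amount in both lines. It was at 12.47, 12.31 and 12.21 in AGS ESRRG OE samples, against 11.05, 10.94 and 10.99 in AGS control samples (2.52-fold higher, 1.34, SE 0.09, adjusted p = 7.97e-09). It was at 12.45, 12.32 and 12.32 in MKN45 ESRRG OE samples, against 11.07, 10.89 and 11.05 in MKN45 control samples (2.56-fold higher, 1.36, SE 0.08, adjusted p = 3.18e-08). Both groups were tight and more than 1 log2 unit apart, and the difference between the lines was -0.02 with a 95% interval of -0.27 to 0.23. ELOVL6, which extends palmitate to the stearate that SCD uses, was at 9.93, 9.72 and 9.84 in MKN45 ESRRG OE samples, against 9.19, 9.23 and 9.23 in MKN45 control samples (1.53-fold higher, 0.62, SE 0.08, adjusted p = 4.11e-05). In AGS cells ELOVL6 was at 8.88, 8.86 and 9.12 in ESRRG OE and 8.94, 8.54 and 8.90 in control samples, with overlap and no call (0.16, adjusted p = 0.228), and it was called higher with each array divided by its median (0.34, adjusted p = 0.0246). In both lines FASN, which makes palmitate, and SCD, which acts after it, thus lay on opposite sides of their controls.

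**Figure D3:**
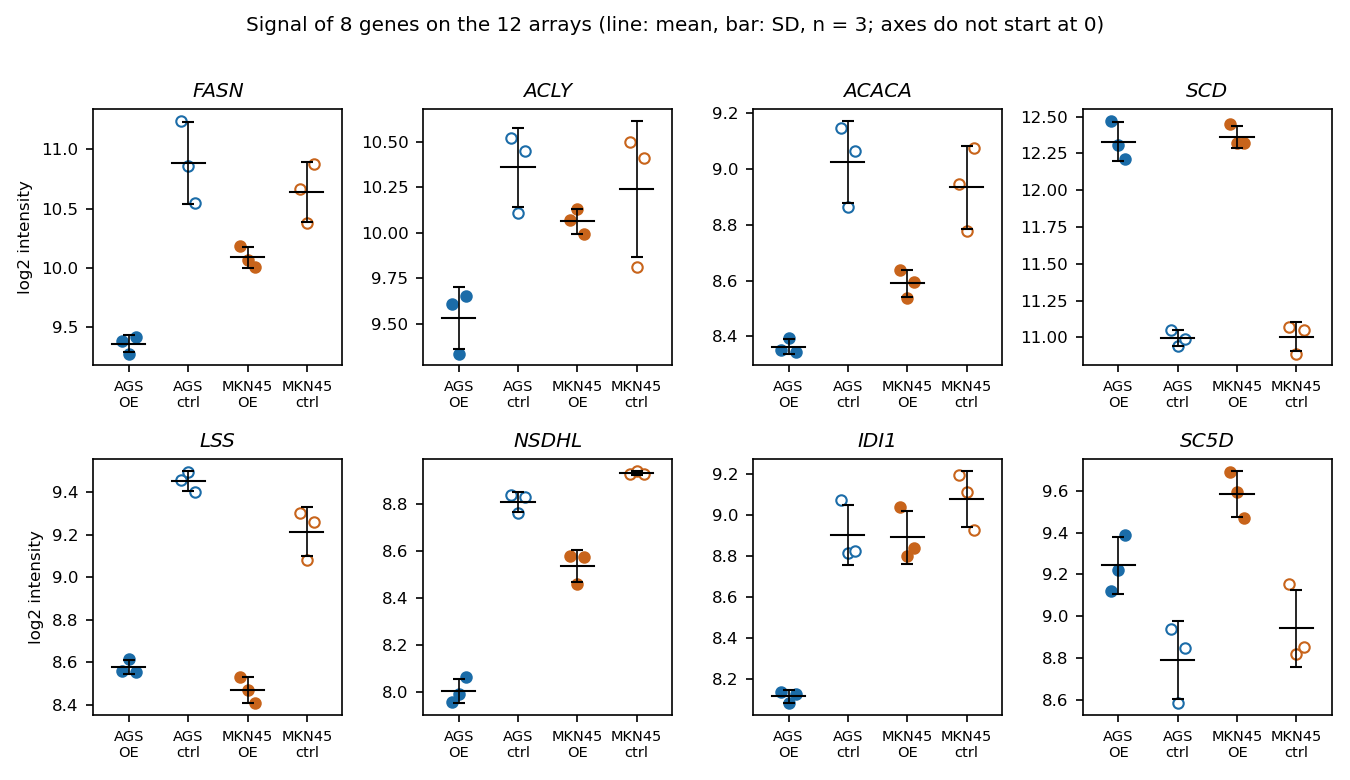
Quantile-normalized log2 intensity of 8 genes on each of the 12 arrays, ESRRG OE (filled) left of control (open) in AGS (blue) and MKN45 (orange) cells, with the mean (line) and SD (bar, n = 3); the axes do not start at 0. FASN, ACACA, LSS and NSDHL were lower and SCD and SC5D higher in ESRRG OE samples of both lines without overlap, while ACLY and IDI1 were apart from their controls in AGS cells and overlapped them in MKN45 cells.

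The response differed between the lines for 7 of the 24 genes by the interaction of cell line and vector, all 7 in the direction of a lower value in AGS cells. This was 29.2% of the members with a lower and 0% with a higher AGS change, against 5.65% and 6.07% of all 11563 genes tested. The 7 were FASN (AGS change minus MKN45 change -0.97, 95% interval -1.36 to -0.58, adjusted p = 0.00228), ACLY (-0.65, adjusted p = 0.0380), IDI1 (-0.60, adjusted p = 0.00531), SQLE (-0.50, adjusted p = 0.0164), ACAT2 (-0.46, adjusted p = 0.0121), ELOVL6 (-0.45, adjusted p = 0.0420) and NSDHL (-0.41, adjusted p = 0.0132). FASN, ACAT2 and NSDHL fell in both lines and further in AGS cells. IDI1, SQLE and ACLY passed the test as lower in AGS cells only, and ELOVL6 passed the test as higher in MKN45 cells only. The difference of DHCR7 did not pass (-0.41, adjusted p = 0.0912). It passed with the second probe of DHCR7 (-0.58, adjusted p = 0.009) and with the mean of its probes (-0.50, adjusted p = 0.0213). The median difference of the members was -0.29, against -0.02 over all genes. With each array divided by its median the median of all genes was -0.07, the share of differing genes with a higher AGS change was 36.2% in place of 51.8%, and only FASN and ACLY of the 7 passed. The differences of the other 5 were not smaller on that scale (ACAT2 -0.56, IDI1 -0.69, SQLE -0.62, NSDHL -0.48 and ELOVL6 -0.59), while their adjusted p-values were 0.0579 to 0.124. When each probe was tested on its own spread, SQLE, ACLY, FASN and ELOVL6 did not pass, at adjusted p-values of 0.0651 to 0.196.

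**Figure D4:**
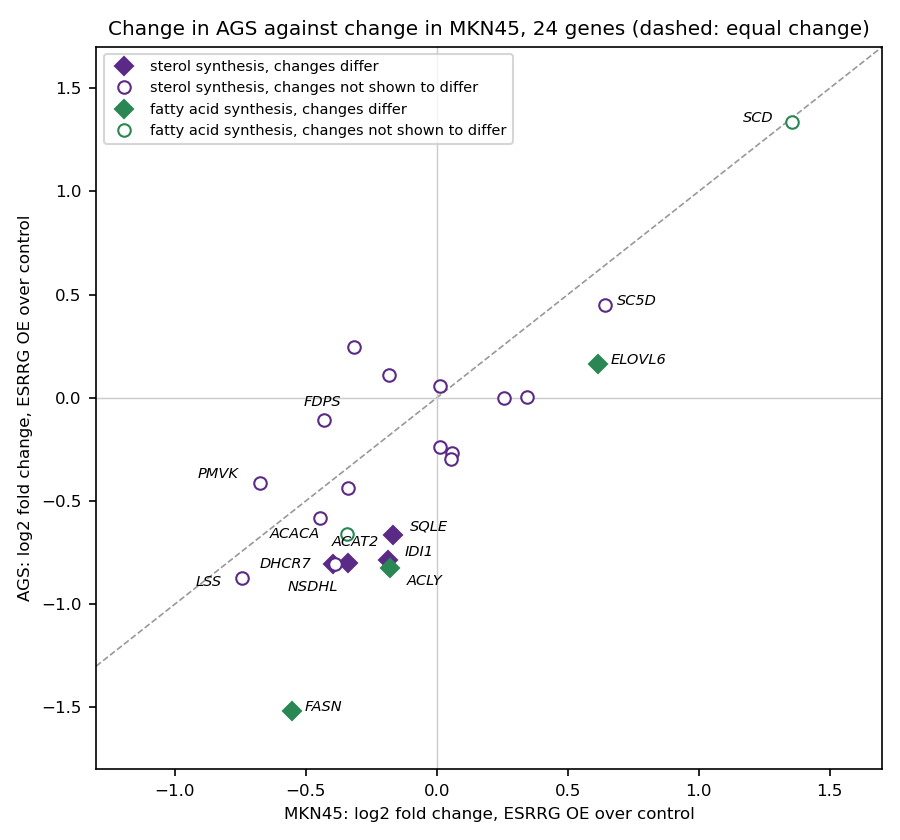
Log2 fold change in AGS cells against that in MKN45 cells (ESRRG OE over control) for the 24 genes, with diamonds for the 7 whose change differed between the lines at an adjusted p under 0.05 and a dashed line for equal change. All 7 diamonds lie below the dashed line, FASN farthest from it (-0.97 log2 units) and SCD, an open circle, on it (-0.02); with each array divided by its median, 2 of the 7 (FASN and ACLY) passed.

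The control samples of the lines were close in most of these genes. Between MKN45 control and AGS control samples, 3 of 24 members were higher in MKN45 (ELOVL6 0.42, adjusted p = 0.00547; HMGCS1 0.33, adjusted p = 0.0146; CYP51A1 0.27, adjusted p = 0.0384) and 1 was lower (LSS -0.24, adjusted p = 0.0407). These were 12.5% and 4.17% of the members, against 7.58% higher and 9.23% lower over all 11563 genes. ELOVL6 was the only one of the 4 whose call held without each array in turn. The second probe of ELOVL6 did not pass in this comparison (0.17, adjusted p = 0.162). HMGCS1 lost its call without MKN45 control replicate 1 (adjusted p = 0.0580), MKN45 control replicate 2 (0.0591) or AGS control replicate 2 (0.0508). LSS lost its call in 7 and CYP51A1 in 6 of the 12 runs that left out an array, at adjusted p-values of up to 0.168 for LSS and 0.116 for CYP51A1. Of all genes that passed in this comparison 45.1% were higher in MKN45 control samples, and 76.5% with each array divided by its median, where LSS was at -0.07 (adjusted p = 0.673).

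Other probes of the same genes bore on how far these values rest on the probe chosen. In AGS cells the second probes of ACACA (-0.58), ACLY (-0.50), DHCR7 (-0.91), SQLE (-0.47) and ACAT2 (-0.32) were also lower, at adjusted p-values of 0.00541 or less over 19536 probes. The other 2 probes of LSS, both dim, were at -0.03 (adjusted p = 0.782) and -0.21 (adjusted p = 0.0508). The second probe of INSIG1 was at 0.02 (adjusted p = 0.853), so its fall was seen by 1 probe. In MKN45 cells the second probe of ELOVL6 was higher (0.79, adjusted p = 8.20e-06) and those of ACACA (-0.46, adjusted p = 8.02e-04) and DHCR7 (-0.32, adjusted p = 0.0248) were lower, while that of ACAT2 was at 0.03 (adjusted p = 0.791). The second probe of ELOVL6 was also higher in AGS cells (0.24, adjusted p = 0.0296) and that of INSIG1 was higher in MKN45 cells (0.23, adjusted p = 0.0339), where the probes used above were not called. One other probe of MSMO1 was higher in MKN45 cells (0.71, adjusted p = 1.87e-04) and another was at -0.01 (adjusted p = 0.960).

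Further genes around the same pathway, listed with earlier results of these data known, did not fall together. Of 8 tested genes of SREBP control and sterol uptake, 3 were higher and 3 lower in AGS ESRRG OE cells, and 3 were higher and 2 lower in MKN45 ESRRG OE cells. The shares were 37.5% higher and 37.5% lower in AGS, against 24.1% and 27.2% of all genes, and 37.5% higher and 25% lower in MKN45 cells, against 20.1% and 20.9%. NPC1, which exports cholesterol from the lysosome, was 2.57-fold higher in AGS (log2 fold change 1.36, adjusted p = 2.25e-08) and 3.05-fold higher in MKN45 ESRRG OE cells (1.61, adjusted p = 2.35e-08). INSIG2, the second brake on SREBP processing, was 2.40-fold higher in AGS (1.26, adjusted p = 1.53e-08) and 1.46-fold higher in MKN45 ESRRG OE cells (0.54, adjusted p = 2.41e-04), and this difference between the lines passed the test (0.72, adjusted p = 8.67e-04). INSIG2 and its relative INSIG1 thus differed in AGS cells, where INSIG1 was lower by the probe used above. That call of INSIG1 was lost with each array divided by its median (-0.10, adjusted p = 0.478). TMEM97, a sterol-responsive membrane protein, was 2.38-fold lower in AGS (-1.25, adjusted p = 1.15e-08) and 1.34-fold lower in MKN45 ESRRG OE cells (-0.43, adjusted p = 0.00125), also with a difference between the lines (-0.83, adjusted p = 1.73e-04). MBTPS1, a protease that cuts SREBPs, was lower in MKN45 ESRRG OE cells (-0.23, adjusted p = 0.0291), and also in AGS ESRRG OE cells (-0.32, adjusted p = 0.00692). NPC2, the partner of NPC1, was lower in AGS ESRRG OE cells (-0.36, adjusted p = 0.00159). With each array divided by its median, 5 of the 8 were higher and 2 (TMEM97 and NPC2) lower in AGS, and 4 were higher and 0 lower in MKN45 ESRRG OE cells, where TMEM97 was at -0.13 (adjusted p = 0.479) and MBTPS1 at 0.09 (adjusted p = 0.556). The shares of all genes were then 32.4% higher and 13.4% lower in AGS, and 30.7% and 3.91% in MKN45 cells.

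A further list held other genes of fatty acid synthesis together with genes of fatty acid activation and lipid assembly. Of 17 tested in AGS cells 11 were higher and 2 lower in ESRRG OE samples, and of 18 tested in MKN45 cells 9 were higher and 1 lower. The shares higher were 64.7% in AGS and 50% in MKN45 cells, against 24.1% and 20.1% of all genes, and the shares lower were 11.8% and 5.56%, against 27.2% and 20.9%. The largest rises were ACSL5 (0.72, adjusted p = 1.95e-05) and LPIN1 (0.52, adjusted p = 3.31e-04) in AGS, and ACSL1 (0.61, adjusted p = 4.04e-05) and ELOVL7 (0.59, adjusted p = 1.03e-04) in MKN45 ESRRG OE cells. ACSL5 and ACSL1 activate fatty acids with CoA, LPIN1 makes diacylglycerol, and ELOVL7 is an elongase. The falls were GPAM (-0.35, adjusted p = 0.00478), an acyltransferase, and TECR (-0.25, adjusted p = 0.0195), a reductase of elongation, in AGS, and HSD17B12 (-0.27, adjusted p = 0.0243), another enzyme of elongation, in MKN45 ESRRG OE cells. Among the rises in both lines were also ACSS2, which makes acetyl-CoA from acetate (0.37 in AGS and 0.58 in MKN45 ESRRG OE cells), and MID1IP1, an activator of acetyl-CoA carboxylase (0.52 and 0.44), both chosen after their values were seen. With each array divided by its median, 12 were higher and 0 lower in AGS, and 11 were higher and 0 lower in MKN45 ESRRG OE cells (32.4% and 30.7% of all genes were then higher), so that the falls of GPAM (-0.20, adjusted p = 0.130), TECR (-0.10, adjusted p = 0.445) and HSD17B12 (-0.06, adjusted p = 0.756) did not pass.

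Of 8 tested genes of cholesterol efflux and known liver X receptor targets, 5 were higher and 1 lower in AGS ESRRG OE cells, and of 7 tested in MKN45 cells 3 were higher and 0 lower. The shares higher were 62.5% and 42.9%, against 24.1% and 20.1% of all genes, and with each array divided by its median the counts were 5 higher and 0 lower in AGS, and 3 higher and 0 lower in MKN45 cells, against 32.4% and 30.7% of all genes higher. SMPDL3A, a phosphodiesterase, was higher in AGS (0.73, adjusted p = 2.88e-05) and MKN45 ESRRG OE cells (0.83, adjusted p = 1.22e-05), and so was LPCAT3, a phospholipid acyltransferase (0.56, adjusted p = 2.79e-05, and 0.83, adjusted p = 1.33e-05). NR1H3, which encodes liver X receptor alpha, was lower in AGS ESRRG OE cells (-0.27, adjusted p = 0.00929), and did not pass with each array divided by its median (-0.14, adjusted p = 0.287). Of 4 further sterol synthesis enzymes tested in AGS cells, 1 was higher in ESRRG OE samples and 3 did not pass. It was GGPS1, which makes geranylgeranyl diphosphate (0.40, adjusted p = 6.08e-04). In MKN45 cells GGPS1 was also higher (0.33, adjusted p = 0.00650) and 2 did not pass. These shares were 25% in AGS and 33.3% in MKN45 cells, against 24.1% and 20.1% of all genes.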

How the data were processed

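RNA from 12 samples, 3 in each of 4 groups given by the labels, was hybridized to Illumina BeadChip V4 arrays, 1 array per sample. Scanning was done by the authors on a BeadArray Reader. GenomeStudio is named in the submitters' processing notes, and its version is not given in the sources used here. Per array, the authors deposited linear probe intensity values, with neither background subtraction nor normalization (lowest value 69.7), and detection p-values. They also deposited log2 values from quantile normalization in limma. Repeating that step on the deposited intensities (R 4.3.3, limma 3.58.1) gave the deposited log2 values within 5.00e-04. Because background signal is included in the values, folds of dim genes are understated.

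Probes were named by the platform annotation: 30113 of 47323 had 1 symbol. Groups were compared with lmFit and eBayes, within each line on its 6 arrays, and across lines (interaction, control against control) in 1 fit of 12 arrays, with Benjamini-Hochberg adjustment over all genes tested. The members, the other gene lists, the naming rule (all members, ESRRG, the 2 largest rises and 2 largest falls per further list and line, promoters of the 6 members with the largest changes outside chromosome 8) and the tests were chosen with earlier results of these data known; MET was added after its values were seen. Promoter windows came from RefSeq (GRCh38.p14) and were searched with regular expressions. Alternatives were background correction (neqc, offset 16), division by the array median, normalization within a line, no detection filter or one at 0.01, other sets of arrays in the fit, a block for the replicate number, each probe tested on its own spread, the log2 values as deposited, averaging all detected probes of a gene, and leaving out each array. No column of per-sample values was left unused (0).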

Additional observations from a re-analysis of the deposited data

Results flagged for a closer look

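For 7 of the 24 genes the change on ESRRG overexpression differed between the lines by the interaction test. FASN was at -1.52 in AGS and -0.55 in MKN45 cells (log2 fold change, ESRRG OE over control), a difference of -0.97. IDI1 was at -0.79 in AGS and -0.19 in MKN45 cells (difference -0.60), SQLE at -0.67 and -0.17 (difference -0.50), ACAT2 at -0.80 and -0.34 (difference -0.46) and NSDHL at -0.81 and -0.40 (difference -0.41). These 5 differences passed the test without each of the 12 arrays in turn, and only that of FASN among them passed with each array divided by its median, where the other 4 differences were -0.69 (IDI1), -0.62 (SQLE), -0.56 (ACAT2) and -0.48 (NSDHL).

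ACLY was at -0.83 in AGS and -0.18 in MKN45 cells (difference -0.65), and ELOVL6 at 0.16 and 0.62 (difference -0.45). These were the least stable: ACLY lost its call in 7 and ELOVL6 in 9 of the 12 runs that left out an array, and each in 4 of the 8 other alternatives. Without MKN45 control replicate 2, the array on which ACLY was low, its difference was -0.43 (adjusted p = 0.0765 from limma). The smallest difference of ELOVL6 without an array was -0.38, without AGS control replicate 1 (adjusted p = 0.114). In limma over 21080 probes with all arrays, the second probe of ELOVL6 passed (-0.55, adjusted p = 0.00489). That of ACLY did not (-0.33, adjusted p = 0.329). The likeness of the control arrays of the lines (r = 0.983 to 0.987 across probes) stands beside all 7, and its part in them was not tested.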

How the results depend on the processing

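No called fold change of a member turned direction under any alternative. Of the member-level results, 831 kept their side of the threshold under alternatives other than leaving out an array, 6 gained a call and 50 lost one; on leaving out an array 806 kept it, 14 gained and 44 lost a call. Dividing each array by its median changed most: 4 members were higher in AGS ESRRG OE cells (in place of 2), 2 were lower in MKN45 ESRRG OE cells (in place of 10), 2 had a lower AGS change in the interaction (in place of 7) and 0 were lower in MKN45 control than in AGS control samples (in place of 1); over all genes 1464 in place of 2971 were lower in AGS ESRRG OE cells, 3455 in place of 2263 higher and 439 in place of 2346 lower in MKN45 ESRRG OE cells, 308 in place of 1067 lower in MKN45 control samples, and 138 higher and 243 lower in the interaction in place of 702 and 653. With the own spread of each probe 1 member was higher in AGS and 5 were lower in MKN45 ESRRG OE cells, 3 were lower in the interaction and 1 was higher in MKN45 control samples (in place of 3); over all genes 1420 were lower in MKN45 ESRRG OE cells, and 309 higher and 380 lower in the interaction. With background correction 4 members were lower in the interaction and 1 member was higher in MKN45 control samples. On that setting 0 members were lower in MKN45 control samples, as with the control arrays alone (0). Over all genes 443 were higher in the interaction with background correction. Without AGS ESRRG OE replicate 2, 412 of all genes were lower in the interaction. The cause was not tested. Without each array in turn, members higher and lower numbered 2 to 3 and 13 to 14 in AGS, 4 to 5 and 9 to 11 in MKN45, 0 to 1 and 5 to 8 in the interaction, and 1 to 3 and 0 to 1 in MKN45 control samples. Whether the replicate numbers pair the samples is not known. Same-numbered arrays had correlations of deviations between -0.10 and 0.23, and 3 arrays a group cannot settle it. With the replicate number as a block, 2 members were higher and 15 lower in AGS, 5 and 11 in MKN45 (the added one HSD17B7, -0.32, adjusted p = 0.0140), and 1 (HSD17B7, 0.56, adjusted p = 0.0243) and 7 in the interaction. With 3 arrays a group, changes well under 0.5 log2 units can be missed, and genes near background have understated folds.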
